A study of Mus musculus with 2 samples.

Results

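Mid round spermatids of the Cd46 stage were defined as testis cells in which Cd46, Dyrk4 and Tmco5b were, on average, the highest of 10 sets of 3 stage genes. The cells were chosen by the levels of these genes in the data described here. A barcode was scored when fewer than 2 of 10 genes of other cells (Insl3, Cyp17a1, Cst9, Cldn11, Crabp1, Dmrt1, Prdm9, Rad51ap2, C1qa and C1qb) were detected in it, which left 9669 of 12768 barcodes. The level of each stage gene, as the natural log of 1 plus UMIs per 10000, was turned into a z-score over the scored barcodes and averaged within its set. Set E, the 3 genes named above, was highest in 555 barcodes, 245 from the wild-type (WT) library and 310 from the Alkbh5 knockout (KO) library. In order of development the other sets were A (Piwil1, Pou5f2, Tdrd5), B (Pabpc6, Nutm2, Ccna1), C (Fam24a, Prss46, BC061237), D (Acrv1, Spaca1, Lyzl1), F (Cst13, Fam71b, Tssk2), G (Prss58, Prss51, Gm136), H (Tnp2, Tex37, Cstl1), I (Klk1b8, Paqr5, Tmem269) and J (Spem1, Car2, Tssk6).

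The study profiled testes of 12-week-old C57BL/6 mice, WT and Alkbh5-/-, by single-cell RNA sequencing of cells captured on microfluidic devices (GEXSCOPE kit), with 1 library per genotype. The KO animals came from matings of heterozygous parents and lacked Alkbh5, an eraser of N6-methyladenosine (m6A) in RNA. The introduction speaks of 1 mouse per genotype and the methods of 3, so a library may pool animals. With 1 library each, differences of KO from WT have no replicate check. Intervals are exact at 95% and cover counting error only.

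Round spermatids are the haploid cells that follow meiosis. In their middle phase the acrosome, a secretory vesicle that later helps the sperm enter the egg, spreads over the nucleus and the flagellum grows, and transcription stops soon afterwards as histones give way to transition proteins and protamines. The X and Y chromosomes are silenced during meiosis and stay mostly repressed in round spermatids, apart from a set of genes that are switched on after meiosis. Sister spermatids remain joined by cytoplasmic bridges through which RNA is shared, so X-linked transcripts are also found in cells that carry a Y. CD46 is a membrane regulator of complement that in mice sits on the inner membrane of the acrosome, DYRK4 is a dual-specificity kinase of the testis, and TMCO5B is a transmembrane protein with a coiled coil.

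The starting points of the 3 genes that chose the cells are shown because everything that follows rests on these genes. Each window runs from 250 bases before to 50 bases after the RefSeq start (GRCm38.p6), at chr1:195092199-195092498 (minus strand) for Cd46, chr6:126921790-126922089 (minus strand) for Dyrk4 and chr2:113285482-113285781 (plus strand) for Tmco5b. The motifs searched on both strands were the cAMP response element TGACGTCA, which CREM reads in spermatids, its variant TGACGTAA, the core TGACG that both contain, the TATA box TATAAA and the CCAAT box CCAATC, and capitals mark the matches.
Cd46: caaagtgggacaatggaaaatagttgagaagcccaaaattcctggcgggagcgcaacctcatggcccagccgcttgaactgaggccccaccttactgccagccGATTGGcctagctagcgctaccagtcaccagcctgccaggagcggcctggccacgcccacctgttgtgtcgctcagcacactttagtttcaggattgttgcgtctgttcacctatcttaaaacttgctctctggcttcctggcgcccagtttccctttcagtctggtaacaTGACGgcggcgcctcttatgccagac
Dyrk4: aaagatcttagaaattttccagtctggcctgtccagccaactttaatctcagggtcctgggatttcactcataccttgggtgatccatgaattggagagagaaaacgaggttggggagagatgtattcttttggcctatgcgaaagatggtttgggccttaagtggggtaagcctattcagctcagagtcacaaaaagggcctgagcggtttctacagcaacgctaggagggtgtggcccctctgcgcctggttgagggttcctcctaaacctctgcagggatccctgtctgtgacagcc
Tmco5b: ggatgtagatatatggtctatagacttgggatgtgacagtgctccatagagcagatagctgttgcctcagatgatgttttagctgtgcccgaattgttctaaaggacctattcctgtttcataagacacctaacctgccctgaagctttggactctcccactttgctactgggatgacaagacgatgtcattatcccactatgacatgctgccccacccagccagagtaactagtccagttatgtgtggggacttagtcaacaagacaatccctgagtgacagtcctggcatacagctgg
Of the 3 windows only that of Cd46 held a match, TGACG with its first base 24 bases after the start and the reverse complement GATTGG of the CCAAT box 147 bases before it. TGACG was present in 23.0% of all 27025 genes with a window in the table, in 34.4% of the 4041 matched genes of those tested in the spermatids below, and in 32.3% of the 412 matched genes of the 567 that were highest at the Cd46 stage. The full palindrome TGACGTCA was present in 2.03%, 4.11% and 4.61% of the same groups, TGACGTAA in 0.581%, 1.14% and 1.21%, TATAAA in 15.7%, 10.5% and 12.6%, and CCAATC in 18.2%, 22.0% and 20.9%. A match describes the letters of a window only.

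The WT library held 5756 barcodes with 80283221 UMIs (unique molecular identifiers, 1 per captured RNA molecule) and the KO library 7012 barcodes with 82056760 UMIs. Cd46-stage spermatids had between 5148 and 85491 UMIs in WT, with a median of 15809 and 3827 genes, and between 4793 and 57544 in KO, with a median of 13558 and 3591.5 genes. Scrublet called 17 of the WT and 8 of the KO spermatids doublets, and these were kept. The 2 libraries shared 45 barcode sequences, of which 1 was a Cd46-stage spermatid in both. Alkbh5 itself was sparse at this stage, with 5 UMIs in 245 WT cells and 0 in 310 KO cells, so the knockout could not be read from these cells alone. In the whole libraries it had 607 UMIs in WT and 5 in KO.

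The level of Cd46 was 116 CPM (UMI counts summed over the cells and scaled to a total of 1000000) in WT and 108 in KO spermatids of this stage. In the preceding Acrv1 stage, set D, it was 3.61 and 1.97 CPM, and in the following Cst13 stage, set F, 6.69 and 7.35 CPM. Dyrk4 stood at 196 and 190 CPM against 21.6 and 15.4 before and 36.4 and 44.8 after. Tmco5b stood at 267 and 304 CPM against 32.7 and 33.4 before and 76.8 and 74.2 after. The 3 genes were therefore high over 1 step of the series in both libraries, and these levels only describe the choice. A UMI of Cd46 was present in 82.4% of the WT and 73.5% of the KO cells, of Dyrk4 in 90.6% and 90%, and of Tmco5b in 94.7% and 92.9%. As a measure of free RNA, Leydig cells (a UMI of both Insl3 and Cyp17a1, 96 WT and 1196 KO barcodes) had a UMI of Cd46 in 5.21% and 2.59%, at median depths of 10165.5 and 8106 UMIs.

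**Figure D1:**
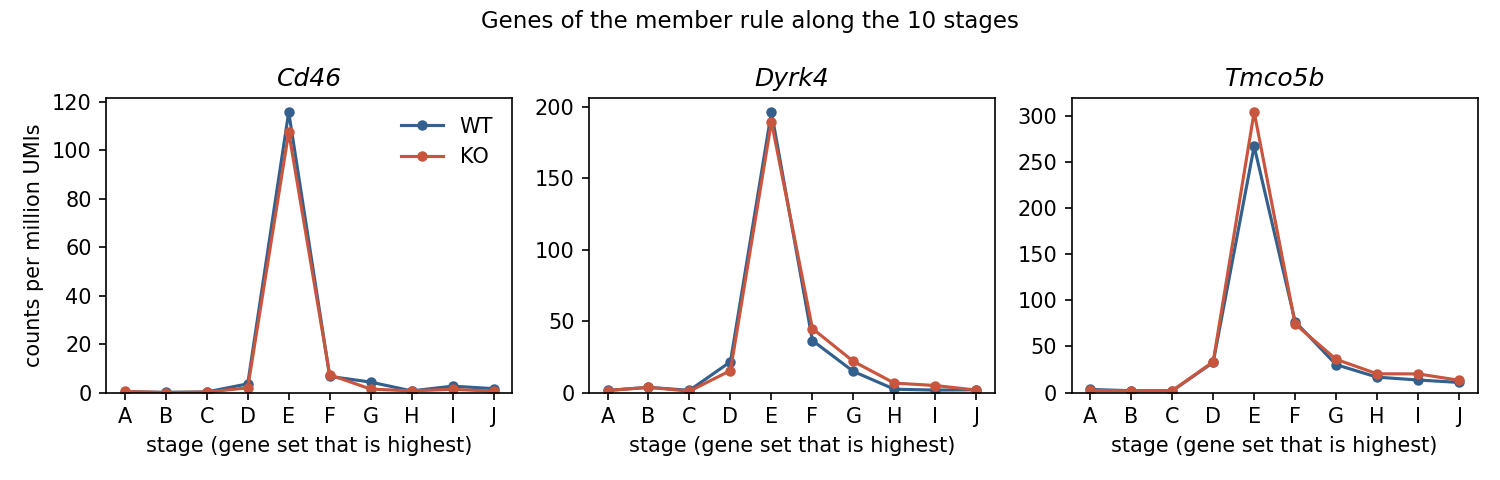
Levels of Cd46, Dyrk4 and Tmco5b (CPM, linear axis) in the 10 stages A to J, summed over the barcodes of each stage, for the WT (blue) and the KO library (red). Both libraries peak at stage E, with Cd46 at 116 CPM in WT and 108 in KO.

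The label of a mid round spermatid was set beside Acrv1, Cst13 and Tnp2, which define other sets of the rule, and Prm1, which the rule did not use. Acrv1, a protein of the acrosomal matrix, stood at 804 CPM in WT and 759 in KO, below the 990 CPM of both libraries in the Acrv1 stage and above 121 and 123 in the Cst13 stage. Cst13, a cystatin of the testis, was at 1490 and 1524 CPM, against 158 and 171 before and 2526 and 2252 after. Tnp2, the transition protein that replaces histones, was at 6360 and 6441 CPM, against 647 and 430 before and 16316 and 15743 after. Prm1, the protamine that condenses sperm chromatin, was at 36164 and 32536 CPM, against 4656 and 2092 before and 92275 and 84387 after. These levels describe where the rule placed the cells and are no independent check of it. Prm1 was also abundant as free RNA, with 14772 CPM in WT and 6999 in KO Leydig cells, and the part of free RNA in the levels of the spermatids was not tested. The list of mid round markers has 15 genes, and 4 were highest at this stage in both libraries, the 3 genes of the rule and Tex29. Tex29 stood at 1314 CPM in WT and 1240 in KO. Spata46, at 1738 and 1387 CPM, was higher at the Acrv1 stage, at 2044 and 1720 CPM. Among 9 early round markers with enough cells, 2 were highest at the Cd46 stage in both libraries, Spata25 and Tex33. Of all 4718 genes with enough cells, 567 (12%) were highest there in both. The rule fixed 3 of the 4 mid round markers, and nothing is read from these marker counts. All 3 marker genes of set E were detected in 176 of 245 WT cells (71.8%, Clopper-Pearson 65.8 to 77.4) and 192 of 310 KO cells (61.9%, 56.3 to 67.4).

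**Figure D2:**
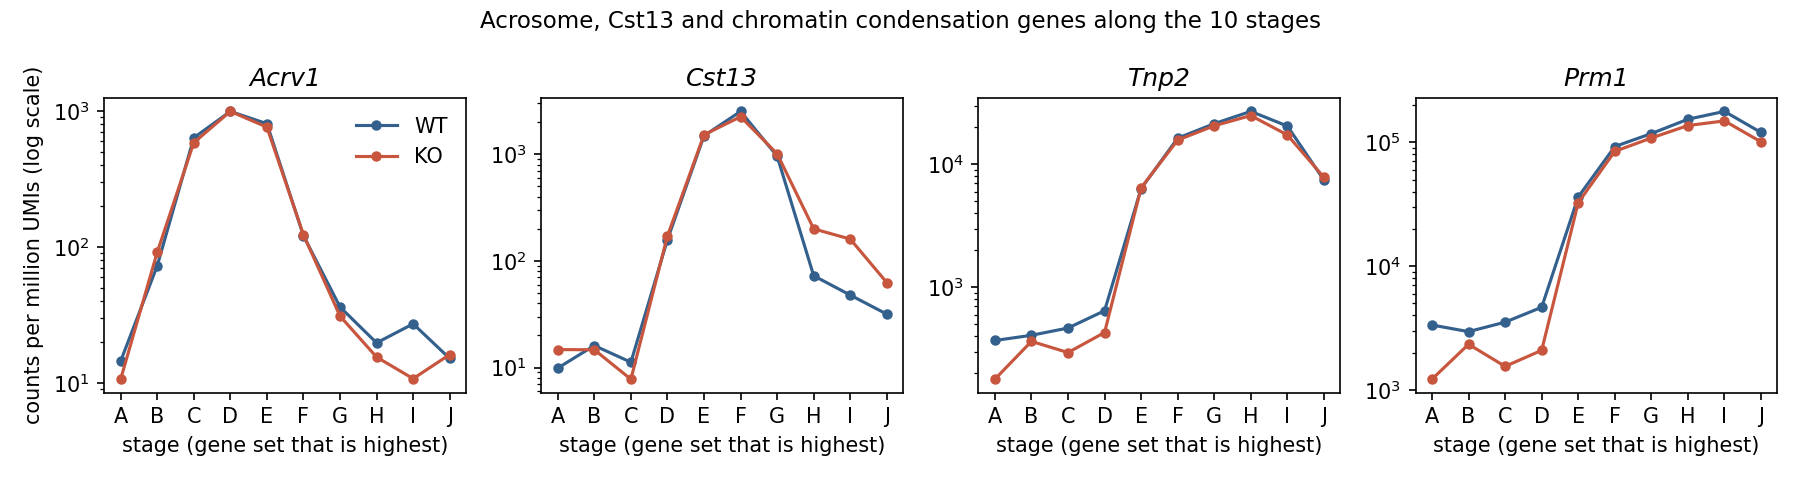
Levels of Acrv1, Cst13, Tnp2 and Prm1 (CPM, log axis) in stages A to J for the WT (blue) and the KO library (red). Stage E lies on the fall of Acrv1, before the peak of Cst13 and on the rise of Tnp2 and Prm1.

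Within the cells, the second highest set gave the neighbour each one leaned to. It was set D in 125 of 245 WT cells (51.0%, 44.6 to 57.4) and 137 of 310 KO cells (44.2%, 38.6 to 49.9), and set F in 86 (35.1%, 29.1 to 41.4) and 132 (42.6%, 37.0 to 48.3), so that the intervals of the genotypes overlapped for both. Cells leaning to D had 3391 CPM of Tnp2 in WT and 3157 in KO, and cells leaning to F had 8632 and 8383. Prm1 was 18425 and 14865 CPM in the former and 48044 and 43063 in the latter. The early round spermatid gene BC061237 went the other way, from 223 to 123 CPM in WT and from 451 to 201 in KO. Tnp2 and BC061237 belong to sets of the same rule, so their levels describe this split and are no check of it. The values at the edge of the class were as follows. In WT, 25 cells led by under 0.25 in their score and had 52.4 CPM of Cd46, while 89 cells in which set E came second by under 0.25 had 25.3 CPM. In KO these were 27 cells with 33.5 CPM and 298 cells with 7.19 CPM. The cells outside had a median set E score of 0.70 in WT and -0.34 in KO, so that most of those in KO were low in set E, and the edges of the libraries hold unlike cells.

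The share of the stage depended on what it was set against. Of all WT barcodes 4.26% (3.75 to 4.81) and of all KO barcodes 4.42% (3.95 to 4.93) belonged to it, which gave 1.04 (0.876 to 1.23) as KO over WT. Of the scored barcodes it was 4.54% and 7.25%, a ratio of 1.59 (1.34 to 1.89). Scoring left 5391 of 5756 WT and 4278 of 7012 KO barcodes, so that this denominator was cut unequally by genotype. Of the spermatids of sets C to J the share of the stage was 5.45% and 9.72%, a ratio of 1.78 (1.50 to 2.12). The following Cst13 stage had nearly the same values, with ratios of 1.04 of all barcodes and 1.79 of the spermatids, while stages I and J were lower in KO, at 14.7% and 14.5% of the spermatids in WT and 7.40% and 6.68% in KO. The KO library held 1196 Leydig barcodes and the WT library 96, and the part of that difference in the first ratio was not tested. The class was also picked with z-scores pooled over the libraries.

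In all, 567 of 4718 genes (12%) that were detected in 25% or more of the cells in each library were highest at the Cd46 stage in both, the 3 genes of the rule included, 382 of them protein coding and 81 annotated as long intergenic RNAs. Since the cells were chosen on these libraries, this is a description with no test. The genes with the largest ratio of these cells over all other scored barcodes were led by RNAs without a known protein and by AC121542.1, whose type the annotation did not give. 4930487D11Rik was 28.8-fold higher in WT and 23.7-fold in KO, and 4930533B01Rik, on the strand opposite the formin gene Fmn1, 18.6-fold and 18.2-fold. AC121542.1, Gm32296, 1700017M07Rik, 4933436H12Rik, 2610028E06Rik, Gm43262 and Gm40271 followed, together with Gm12119 opposite Kcnip1 and Gm13324 opposite Nebl. The smaller of the 2 folds lay above 12-fold in all of them, and how the counting treated overlapping strands is not stated in the sources used here.

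Among protein-coding genes, Osbpl7, an oxysterol-binding protein, was 25.8-fold higher in WT and 14.3-fold in KO than in the other scored cells. Nim1k, a kinase related to AMPK, was 20.6-fold and 15.3-fold higher. Arhgap30 was 13.0-fold and 15.7-fold higher, and Cd59b, like Cd46 a membrane regulator of complement, 14.5-fold and 13.5-fold. Cd59b had 196 CPM in WT and 144 in KO, against 27.0 and 12.1 at the Acrv1 stage and 72.9 and 53.8 at the Cst13 stage. The complement regulators Cd55 and Cd59a, named after their values were seen, were also highest at this stage in both libraries, at 125 and 236 CPM in WT and 138 and 136 in KO.

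Members of the gene lists that were highest here are given beside the 12% of all genes, with nothing read from shares near or below it. Of 42 acrosome and zona binding genes with enough cells, 4 were, Cd46, which the rule fixed, and Spaca6, Actl7a and Fam209, and Spaca6, needed for fusion with the egg, stood at 123 CPM in WT and 114 in KO against 106 at the Acrv1 stage in both. Of 45 flagellum genes 3 did, Ropn1, Tekt5 and Spef1, and Spef1, a protein of the central pair apparatus, stood at 41.5 and 43.1 CPM against 15.2 and 18.3 at the Acrv1 stage. Sun3, which links the nuclear envelope to the manchette, was at 600 and 467 CPM against 331 and 303. Of 14 transcription regulators 2 did, Sox30 and Nr6a1, and of 14 genes of RNA storage only Paip2b, at 124 and 101 CPM against 55.9 and 43.9 at the Acrv1 stage. Of 17 genes of histone exchange and condensation 2 did, the histone variant gene H3f3a, at 442 and 411 CPM, and Chd5, a chromatin remodeller of spermatids, at 118 and 112 CPM. Of 7 m6A genes Fto did, and of 10 immediate early and heat shock genes Hsph1, at 164 and 168 CPM against 22.1 and 22.5 at the Acrv1 stage. Of 24 markers of elongating and condensing spermatids, 27 splicing factors, 72 ribosomal protein genes and 11 genes of the CatSper list, 0 were highest here.

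The genotypes were compared by a criterion of size. A gene was tested when 25% or more of the WT or of the KO cells held a UMI of it, and passed when the natural log of 1 plus its mean count per 10000 moved by 0.25 or more. Of 5492 genes tested, 171 (3.11%) were higher in KO and 70 (1.27%) lower, and the median log2 ratio of CPM, KO over WT, was -0.04. At the Acrv1 stage 142 genes were higher and 67 lower of 5490, and at the Cst13 stage 118 and 76 of 3934. Of the 171 higher genes, 101 were also higher at the Acrv1 stage (59.1%, and 71.1% of the 142 there), and of the 70 lower genes 35 (50%, and 52.2% of the 67 there). The stages come from the same 2 libraries and are no independent repeat of each other.

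The higher genes were mostly X-linked. Of 212 X-linked genes tested, 97 (45.8%) were higher in KO and 0 lower, while of 5140 autosomal genes 57 (1.11%) were higher and 70 (1.36%) lower. Of the X-linked genes, 209 had a log2 ratio above 0, and 203 had an interval that lay above 0. Their median log2 ratio was 1.03, with quartiles at 0.73 and 1.32, against -0.06, -0.27 and 0.14 for the autosomal genes. Each of the 19 autosomes had a median between -0.08 and 0.00. The grouping by chromosome was made after the values had been seen. All 17 Y-linked genes tested were above 0 as well, with a median of 1.13, and 4 of them passed the criterion. At the Acrv1 stage the X-linked median was 0.84 (79 of 213 genes past the criterion) and at the Cst13 stage 1.13 (70 of 128), with 0 lower at either.

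**Figure D3:**
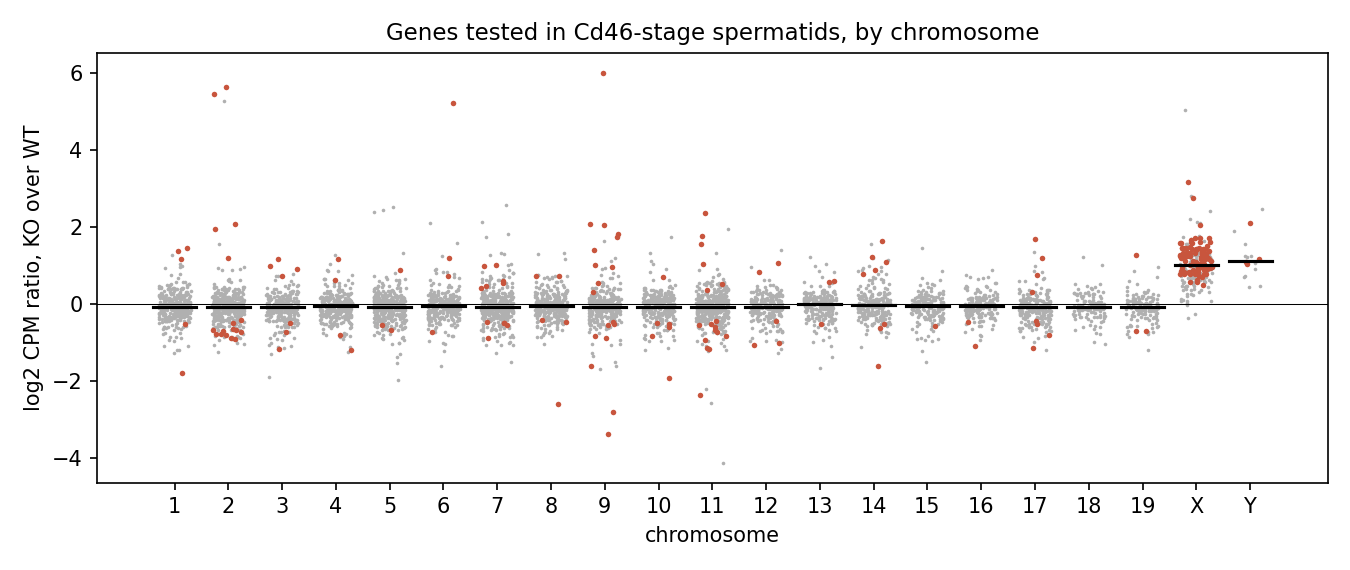
Log2 ratio of CPM, KO over WT, of each gene tested in Cd46-stage spermatids (points), by chromosome, with black bars for the median and red points for genes past the size criterion. The highest point, AC160966.1 on chromosome 9, is drawn with its 0 UMIs in WT taken as 3. The X and Y chromosomes have medians of 1.03 and 1.13, and each autosome lies between -0.08 and 0.00.

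In summed UMIs, X-linked genes made up 2.46% of the RNA of WT spermatids (122314 UMIs, 2.45 to 2.48%) and 4.79% of KO spermatids (247983 UMIs, 4.77 to 4.81%), a ratio of 1.94 (1.93 to 1.96). The difference was seen cell by cell. In WT, the X-linked share of a cell had a median of 2.45%, with the 10th and 90th percentiles at 2.10% and 2.73% and a range from 1.22% to 3.90%. In KO the median was 4.58%, with percentiles at 3.48% and 5.75% and a range from 0.121% to 14.2%. Of 310 KO cells, 249 lay above every WT cell, and 15 lay below the WT median. None of 245 WT cells reached the KO median. Cells of 1 library are not replicates, and these counts describe the 2 libraries only.

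**Figure D4:**
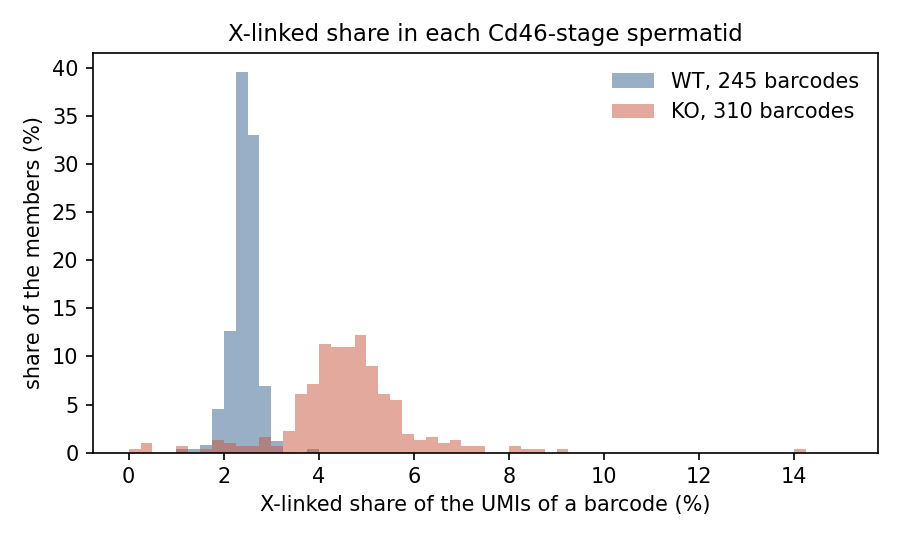
Share of the UMIs of a barcode that fell on X-linked genes (%), for the 245 WT (blue) and 310 KO (red) Cd46-stage spermatids, as the share of the cells of each library per bin of 0.25 percentage points. The WT cells form a narrow peak around 2.45% and the KO cells a broader one around 4.58%.

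By UMIs of both libraries the X-linked genes were led by Cypt1, Cypt3, Akap4, H2afb1 and 1700010D01Rik, of which Akap4 and H2afb1 did not pass the criterion. Of the cysteine-rich perinuclear theca genes, Cypt1 was at 1488 CPM in WT and 2864 in KO (log2 KO/WT 0.94, 0.90 to 0.99), Cypt3 at 933 and 1794 CPM (0.94, 0.89 to 0.99) and Cypt2 at 437 and 1094 CPM (1.32). Cypt genes are near-identical copies among which the counting could split reads. The related Cypt4, which lies on chromosome 9, had 5963 and 6595 CPM (0.15, 0.12 to 0.17) and did not pass. H2al3, a variant of histone H2A, was at 532 and 1232 CPM (1.21, 1.15 to 1.28), and Cylc1, cylicin of the perinuclear theca, at 337 and 779 CPM (1.21, 1.13 to 1.29). 1700010D01Rik, a long intergenic RNA, was at 604 and 1395 CPM (1.21, 1.15 to 1.27).

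Further X-linked genes past the criterion included enzymes and parts of ubiquitin ligation. Uba1, the enzyme that activates ubiquitin, was at 61.7 CPM in WT and 110 in KO (log2 KO/WT 0.83, 0.63 to 1.04), and Cul4b, the scaffold of a ubiquitin ligase, at 88.7 and 199 CPM (1.17, 1.00 to 1.33). Prdx4, a peroxiredoxin, was at 624 and 1017 CPM (0.70, 0.64 to 0.77), and Asb9, an adaptor of ubiquitin ligases, at 391 and 682 CPM (0.80, 0.72 to 0.88). These genes were named after their values had been seen, except Cul4b and Asb9, which belong to the list of ubiquitin ligases and were the 2 of its 26 tested genes that passed. Other X-linked genes did not pass, among them Huwe1, a ubiquitin ligase (0.66, 0.37 to 0.96), Eif1ax, a translation initiation factor (0.38, 0.21 to 0.55), and Stag2, a cohesin subunit (0.23, -0.20 to 0.66).

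The X-linked genes were not shifted by 1 factor. Akap4, the anchor protein of the fibrous sheath, was at 1226 CPM in WT and 1472 in KO (log2 KO/WT 0.26, 0.21 to 0.31), and H2afb1, another variant of H2A, at 1016 and 1085 CPM (0.09, 0.04 to 0.15). Ube2a, a ubiquitin-conjugating enzyme of spermatids, was at 144 and 158 CPM (0.13, -0.01 to 0.28), and Tsga8 at 804 and 957 CPM (0.25, 0.19 to 0.31). The 3 X-linked genes with a ratio below 0 were H3f3a-ps1, Phf6 and Gm2012, and their intervals reached above 0. At the other end were Prps2, which makes phosphoribosyl pyrophosphate, with 18 UMIs in WT and 171 in KO (3.19, 2.48 to 3.98), Gm9043 with 4 and 137 UMIs (5.04, 3.65 to 6.93), Gm15091 with 24 and 177 UMIs (2.82, 2.20 to 3.50) and 9530051G07Rik with 29 and 207 UMIs (2.77, 2.21 to 3.39). Zfy2, a Y-linked zinc finger gene of spermatids, was at 34.3 and 78.0 CPM (1.19, 0.93 to 1.45).

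The list of sex-linked spermatid genes, written with results of these data known, had 15 members tested, of which Zfy2, Cypt1, Cypt3, Cylc1 and 1700013H16Rik were higher and 0 lower. Its median log2 ratio over the 23 genes with at least 10 UMIs was 0.92, beside 0.06 over all 14687 such genes. The list also holds autosomal members such as Tssk1 (-0.11, -0.18 to -0.03, and 0.06 with the cells thinned to 6575 UMIs each).

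Along the series the X-linked share was higher in KO at each of the 10 stages, from 0.205% in WT and 0.767% in KO at stage A to a highest value at stage G, 2.74% and 5.22%. Barcodes of stage A had a mean set A score of 2.30 in WT (356 barcodes) and 1.33 in KO (648 barcodes). The shares at stage A may therefore not compare like cells. The X-linked ratio was 1.77 (1.76 to 1.78) at the Acrv1 stage and 2.00 (1.99 to 2.02) at the Cst13 stage, so that the Cd46 stage lay between them. The Y-linked share reached its highest value at the Acrv1 stage, 0.151% in WT and 0.249% in KO, and stood at 0.0835% and 0.160% at the Cd46 stage, a ratio of 1.91 (1.84 to 1.99).

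**Figure D5:**
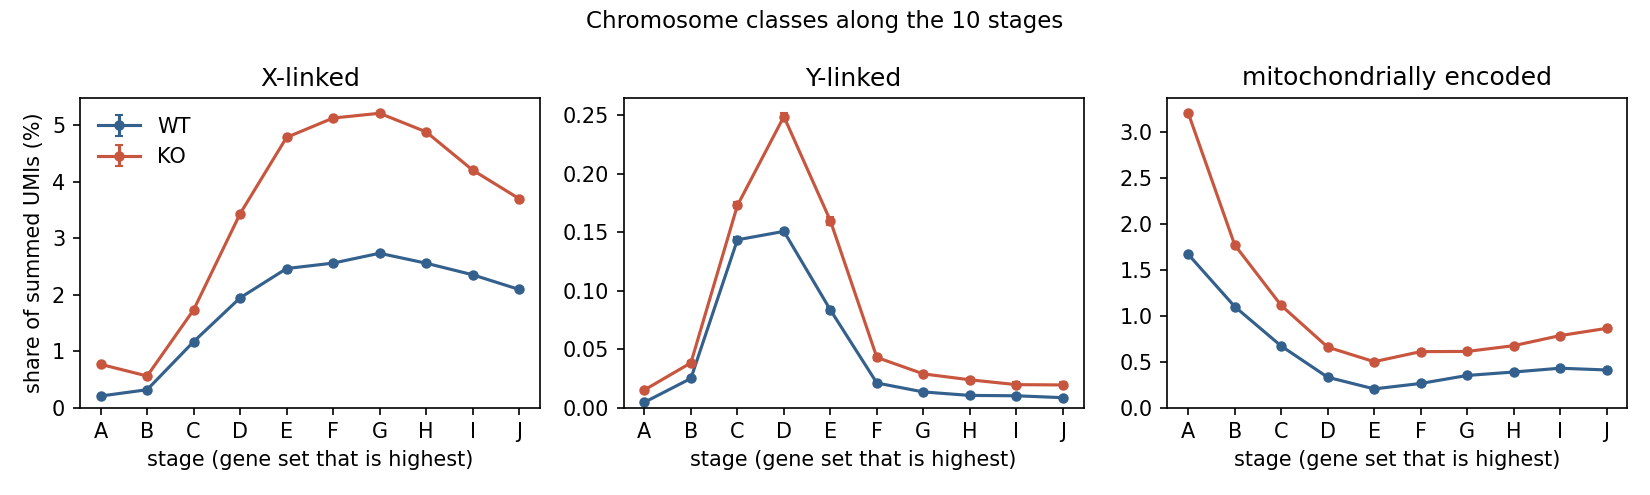
Share of summed UMIs (%) on X-linked, Y-linked and mitochondrially encoded genes in stages A to J for the WT (blue) and the KO library (red), with exact 95% intervals mostly smaller than the points. The KO library is higher for all 3 classes at stage E, 4.79% against 2.46% for the X, 0.160% against 0.0835% for the Y and 0.5% against 0.203% for mitochondrial genes.

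Mitochondrially encoded RNA moved with the genotype as well. It made up 0.203% of the UMIs of WT and 0.5% of KO spermatids, a ratio of 2.46 (2.40 to 2.51), and the ratio was 1.99 at the Acrv1 stage and 2.32 at the Cst13 stage. All 5 of its genes tested passed, among them mt-Cytb at 36.1 and 213 CPM (log2 ratio 2.56, 2.33 to 2.80) and mt-Co1 at 51.2 and 230 CPM (2.17, 1.97 to 2.37), while the ribosomal mt-Rnr2 was at 1424 and 3375 CPM (1.24, 1.20 to 1.28). In cells leaning to D or F the log2 ratio was 1.46 for mt-Cytb and 1.35 for mt-Co1, and the highest mitochondrial share of a KO cell was 9.16%, against 2.11% in WT. Single cells overlapped widely, with medians of 0.199% in WT and 0.465% in KO and 90th percentiles of 0.768% and 1.56%. A higher mitochondrial share is often taken as a sign of RNA quality, and its part in the other differences was not tested.

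RNA of somatic cells was also more frequent in KO spermatids. The 12 Leydig markers had 0.000705% of the UMIs in WT and 0.0235% in KO, 3 of them at 0 in WT and 0 of them in KO, and at least 1 UMI of them was present in 28 of 245 WT cells (11.4%, 7.73 to 16.1) and 143 of 310 KO cells (46.1%, 40.5 to 51.9). Few barcodes carried most of this RNA, since the median share of a KO cell was 0, the 90th percentile 0.0209% and the maximum 6.89%, with 3 KO cells and 0 WT cells above 1%. Ptgds, prostaglandin D synthase of Leydig cells, had 11 UMIs in WT and 572 in KO (log2 KO/WT 5.64, 4.79 to 6.65), and 24918 CPM in KO Leydig cells. In KO cells leaning to sets D or F it stood at 26.7 and 21.6 CPM against 110 over all 310. Sertoli markers had 0.00113% and 0.00583% of the UMIs (2 and 0 of 12 at 0), macrophage markers 0.00427% and 0.00570% (5 and 1 at 0), and peritubular, stromal and endothelial markers 0.00204% and 0.00552% (4 and 3 at 0). Without the cells that held a Leydig marker UMI, the X-linked ratio was 1.97 (1.95 to 1.98), beside 1.94 with them. The mitochondrial ratio was then 2.38, and 195 genes were higher and 84 lower. Leaving out cells does not take free RNA from the rest, and its part in these ratios was not tested.

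Outside the sex chromosomes and mitochondria, a few genes differed far more than the rest. AC160966.1, a transcript on chromosome 9 that lies opposite Gm35940, had 0 UMIs in WT and 203 in KO, 64.9-fold higher when the 0 is taken as 3 counts. Aldh1l1, an enzyme of folate metabolism, had 7 UMIs in 2.86% of WT cells and 272 in 44.8% of KO cells (log2 ratio 5.22, 4.16 to 6.55), and Gss, glutathione synthetase, 4 and 161 (5.27, 3.89 to 7.16). Vmn1r181, a vomeronasal receptor gene, had 24 and 151 UMIs (2.59, 1.96 to 3.28). Lcn2, a lipocalin, had 13 and 598 UMIs (5.46, 4.68 to 6.38), 115 CPM over all KO cells but 28.9 and 29.6 CPM in those leaning to D and to F, and its log2 ratio was 3.27 with no barred gene allowed. Aldh1l1 was between 38.7 and 74.7 CPM at all 10 stages of the KO library and between 0 and 4.71 in WT. Gss was higher at the Cd46 stage of KO (31.1 CPM) than at the Acrv1 stage (4.57 CPM), against 0.806 and 1.64 CPM in WT. Gss and Vmn1r181, like the X-linked Gm9043 and Gm15091, did not pass the criterion of size.

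Among lower genes, Galnt10, which starts O-linked glycosylation, had 150 UMIs in WT and 9 in KO (log2 KO/WT -4.12, -5.28 to -3.16). 4930590H14Rik had 705 and 72 UMIs (-3.35, -3.72 to -3.00) and 1700063D05Rik, a long intergenic RNA, 745 and 113 (-2.78, -3.08 to -2.49). Gm10638, opposite the ubiquitin ligase gene Siah1a, had 694 and 120 UMIs (-2.59, -2.88 to -2.31). 1810065E05Rik (181 and 32 UMIs, -2.56), Ccr7, a chemokine receptor gene (195 and 40, -2.35), and Gip, the gene of an incretin hormone (164 and 37, -2.21), followed. Chpt1, an enzyme of phosphatidylcholine synthesis whose gene overlaps Sycp3 on the opposite strand, had 279 and 77 UMIs (-1.92), Fbxl5, a sensor of iron, 97 and 26 (-1.96), and Ptbp2, a splicing repressor, 121 and 34 (-1.89). Galnt10, 1810065E05Rik, Gip, Fbxl5 and Ptbp2 were too low to pass the criterion of size, whose threshold is on the log of 1 plus the mean.

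Position was noted for some of these genes after their values were seen. Galnt10 lies 2.75 Mb and 1810065E05Rik 2.11 Mb from Alkbh5 on chromosome 11, and Akap10, an anchor protein of kinase A that passed the criterion (888 and 424 UMIs, log2 ratio -1.13), 1.31 Mb. Of 45 tested genes that lay up to 2.89 Mb from Alkbh5, 31 had a log2 ratio below 0, 18 an interval below 0 and 7 an interval above 0, such as Fam183b at 1.73 Mb (3910 and 5867 UMIs, 0.52). Of all 5140 autosomal genes tested, 2152 had a ratio above 0, 1620 an interval below 0 and 871 an interval above 0. Nothing is read from the counts near Alkbh5. AC160966.1 and 1700063D05Rik, the one higher and the other lower in KO, lie at 41803165 to 41876268 and 41192446 to 41217990 on chromosome 9 (GRCm38).

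The lists are given beside the 3.11% of all genes tested that were higher and the 1.27% that were lower in KO, and a list of this size has few or no calls at those shares. Of 43 acrosome and zona binding genes tested, 1 was higher, the X-linked Cylc1, and 0 lower, with a median log2 ratio of -0.12. Spaca9 was at 2854 CPM in WT and 2789 in KO, Dkkl1, an acrosomal protein, at 1539 and 1441 CPM, and Spaca3, a lysozyme-like protein of the acrosome, at 964 and 769 CPM (-0.33, -0.39 to -0.27). Of 23 ADAM proteins and their chaperones, 0 were higher and 1 lower, Ace, the dipeptidase of the sperm surface, at 357 and 250 CPM (-0.52, -0.62 to -0.41), and the median was 0.05. Of 45 flagellum genes 0 passed in either direction (median -0.06), with Meig1, a partner in manchette transport, at 5185 and 5410 CPM and Ropn1l, a protein of the radial spoke and fibrous sheath, at 3481 and 3523 CPM. Of 26 genes of intraflagellar transport and manchette 0 passed (median 0.03), and of 13 CatSper and ion transport genes 0 passed (median -0.11), with Efcab9 at 1012 and 997 CPM.

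Among regulators of the stage the counts were likewise near the shares of all genes. Of 18 transcription regulators 0 passed (median -0.08), with Crem, the activator of postmeiotic genes, at 463 CPM in WT and 377 in KO (log2 KO/WT -0.30, -0.38 to -0.21) and Fhl5, its coactivator, at 1443 and 1506 CPM. Of 15 genes of RNA storage and the chromatoid body 0 passed (median 0.07), with Pabpc1 at 2111 and 2208 CPM and Ddx25, an RNA helicase of the chromatoid body, at 428 and 440 CPM. Of 9 m6A writers, erasers and readers 0 passed (median 0.05). Fto, the other known m6A eraser, was at 77.0 and 74.7 CPM, and Igf2bp3, an m6A reader, at 215 and 159 CPM (-0.43, -0.57 to -0.30). Of 13 kinases of spermatids 1 was lower, Tssk6, needed for sperm formation, at 248 and 182 CPM (-0.44, -0.57 to -0.32), while Tssk2 was at 956 and 874 CPM and the median was -0.11. Of 16 glycolysis isozymes 0 passed (median -0.01), with Ldhc at 5189 and 5152 CPM.

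Of 18 genes of histone exchange and condensation, 1 was higher, the X-linked H2al3, and 1 lower, Prm3, at 2083 CPM in WT and 1511 in KO (log2 KO/WT -0.46, -0.51 to -0.42), with a median of 0.00. Tnp1, a transition protein, was at 4627 and 4442 CPM, Prm2 at 13717 and 11993 CPM and Hmgb4 at 4893 and 5075 CPM. Of 26 genes of ubiquitin ligation, Rnf151, a RING finger protein of the acrosome, was at 2323 and 1997 CPM and Oaz3, an antizyme of spermatids, at 1076 and 896 CPM, both short of the criterion, and the median was -0.08.

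Beside 3.11% higher and a median of 0.06 over all genes with at least 10 UMIs, the housekeeping lists had larger medians. These medians weigh sparse genes like abundant ones and cover 85 ribosomal protein, 50 splicing and 26 immediate early and heat shock genes with at least 10 UMIs. The log2 ratio of the summed UMIs was closer among the lists, at 0.16, 0.10 and 0.13 in the same order. Of 74 ribosomal protein genes tested, 10 were higher and 1, Rpl29, lower, with a median of 0.19, and their share of UMIs was 2.25% in WT and 2.51% in KO. Ribosomal protein genes have many pseudogene copies, among which the counting could split reads. Rpl14 was at 13.3 and 47.3 CPM (log2 ratio 1.83, 1.43 to 2.25) and Rplp0 at 1047 and 1197 CPM (0.19, 0.14 to 0.25). Of 28 splicing factors 1 was higher, near the share of all genes. It was Sf3b1, at 19.9 and 52.5 CPM (1.40, 1.06 to 1.74), and the median of the list was 0.36. Of 12 immediate early and heat shock genes 2 were higher, Hspa5, a chaperone of the endoplasmic reticulum, at 17.3 and 67.6 CPM (1.96, 1.62 to 2.32), and Hsp90ab1 at 23.4 and 54.3 CPM (1.22, 0.90 to 1.54), with a median of 0.67. Sycp1, of the meiotic synaptonemal complex, was at 66.9 and 127 CPM (0.92, 0.73 to 1.12), Dazl, a germ cell RNA-binding protein, at 14.3 and 46.7 CPM (1.71, 1.32 to 2.11) and BC061237 at 175 and 301 CPM (0.78, 0.66 to 0.90). Some of these values rested on few cells, since 12 KO cells and 0 WT cells had set A, B or C second. In the cells leaning to D or F the log2 ratio was 1.18 for Hspa5, 0.84 for Hsp90ab1, 1.19 for Dazl and 0.66 for Sycp1, and Rpl14 stood at 28.5 and 28.0 CPM in KO. With no barred gene allowed it was 0.85 for Hspa5, 0.44 for Hsp90ab1, 0.85 for Dazl and 0.55 for Sycp1. Hspa5, Sycp1 and Dazl were abundant at stage A, at 766, 489 and 223 CPM in WT and 1084, 870 and 664 CPM in KO, and the part of RNA from such cells in the difference was not tested.

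Of 32 genes of cell death and p53 targets, 4 were tested and 1 was lower, Mcl1, which protects from apoptosis, at 55.6 CPM in WT and 24.7 in KO (log2 KO/WT -1.17, -1.48 to -0.86). It was also lower at the Acrv1 stage (-1.29) and the Cst13 stage (-0.73). Bcl2l11, which promotes apoptosis, was at 81.0 and 50.8 CPM (-0.67, -0.90 to -0.45) and did not pass, and Mdm2, an inhibitor of p53, was at 119 and 97.1 CPM (-0.30, -0.47 to -0.12). The median of the 15 genes of the list with at least 10 UMIs was 0.28.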

How the data were processed

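The authors deposited a table of UMI counts per gene and barcode for each library, made, per the labels and the methods, with fastp and FastQC 0.11.7 for the reads, featureCounts 1.6.2 for counting and STAR 2.5.3a for alignment. The methods name a human build for the alignment, while the symbols are those of mouse. GENCODE vM21 (GRCm38) gave a position to 35502 of the 36547 symbols, and RefSeq the start windows. The deposited counts were summed over the cells of a stage and library and scaled to a total of 1000000 (CPM), with exact Clopper-Pearson, Poisson or conditional ratio intervals (scipy 1.17.1), and a sum of 0 was taken as 3 counts in a fold. With 1 library per genotype no p-value was made. Doublets were called with Scrublet (scanpy 1.11.5) and kept. Scripts were tested on simulated data. The text names the 3 genes of the rule, 15 leading genes, the 10 genes with the largest ratio each way among those with at least 100 UMIs, and members of 18 gene lists and 12 marker lists. The members and lists were chosen with earlier results of these data known. Classes by chromosome, and the comparison without cells that hold a Leydig marker, were added after values were seen.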

Additional observations from a re-analysis of the deposited data

How the results depend on the processing

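The denominator and the barred genes set the share of the stage. It was 4.85% in WT with z-scores within each library. When no barred gene was allowed it was lower in KO, at 3.34% in WT and 2.92% in KO. It was higher in KO of the scored barcodes, at 4.54% and 7.25%, and of sets C to J, at 5.45% and 9.72%. The ratios of KO over WT under these last 2 denominators were 1.59 and 1.78. With no barred gene allowed, 38.5% of KO cells leaned to set D and 49.3% to set F. Genes highest at the stage numbered 286 when a larger lead over the next stage was asked and 855 with detection in 10% of the cells. The X-linked ratio was 1.96 with z-scores within each library and 1.97 without cells holding a Leydig marker UMI. The mitochondrial ratio was 2.38 in both of these cases, 2.70 with a lead of 0.25, 2.24 with 2 of the 3 genes detected, 2.02 with no barred gene allowed, 2.61 without doublets and 2.19 in cells leaning to D or F. Under the alternatives run, between 151 and 211 genes were higher and between 65 and 95 lower in KO. Of single-gene values, Tssk1 changed sign to 0.055 with thinned cells and C1qb to 0.10 with no barred gene allowed. The cause was not tested. No paired analysis was possible because each genotype had 1 library.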
